A study of Mus musculus with 18 samples.

Results

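The cytochrome P450 genes of families 1 to 4 encode most of the enzymes that oxidize drugs, pollutants, steroids and fatty acids. Gene symbols of these families in the count table numbered 84, of 24062 symbols in all. A gene was kept when it reached 0.5 CPM (a count scaled to the size of its library) in at least 3 of the 18 libraries, which left 71 genes in 19 subfamilies. No genotype or tissue contrast entered this choice. Cyp2t4, with a third-highest library of 0.788 CPM, was just inside the limit, and Cyp2c65, at 0.329 CPM, was just outside it. RNA came from whole liver, kidney and lung of C57BL/6 mice aged 4 months. CCNE-TA mice carried a Tet-inducible Ccne1 transgene, encoding cyclin E1, together with the rtTA activator that switches it on under doxycycline. TA mice carried rtTA alone, and both genotypes had doxycycline from 3 weeks of age, so that activator and drug were shared by all groups. The promoter that drives rtTA is not given in the sources used here. Each tissue and genotype had 3 libraries. The labels do not say that these came from separate mice, so the p-values measure the spread between these samples. The labels give no sex. By Xist and 4 Y-linked transcripts, kidney and lung held 2 female libraries and 1 male library per genotype. Among the livers, TA library 1 and CCNE-TA libraries 1 and 2 were female, and TA libraries 2 and 3 and CCNE-TA library 3 were male. Liver genotype was therefore not balanced over sex.

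These enzymes are heme proteins of the endoplasmic reticulum that insert an oxygen atom from molecular oxygen into a substrate, with electrons passed on by the reductase Por and by cytochrome b5. Families 1 to 3 act mainly on foreign compounds and steroids, and family 4 mainly on fatty acids. In rodents many hepatic members are transcribed according to sex under the pulsatile or continuous release of growth hormone. Others respond to the Ah receptor, to the xenobiotic receptors CAR and PXR, or to the fatty acid receptor PPARα. Of the 71 genes, 69 had a position in GENCODE M21 (mouse build GRCm38, the same as mm10), and most lay in tandem clusters. Chromosome 7 held 15 genes of the CYP2A, CYP2B, CYP2E, CYP2F, CYP2G, CYP2R, CYP2S and CYP2T subfamilies. Another 14 genes of CYP2J, CYP4A and CYP4B lay on chromosome 4, 12 CYP2C genes on chromosome 19, 8 CYP2D genes on chromosome 15 and 7 CYP3A genes on chromosome 5. Near-identical neighbours can share reads. Over all other genes together, Cyp3a41a shared 98.6% of its 50-base stretches, Cyp2c40 72.1%, Cyp2c69 54.8% and Cyp4a12a 48.9%. The split of counts among such neighbours is uncertain, because the handling of reads with several alignments was not stated. The sum over the kept genes of a subfamily does not depend on how counted reads were split among them. Reads assigned to genes that were not kept, such as Cyp4f37, are outside the sum. Shared reads that were not counted would be missing from the sum too.

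Promoters of genes known to be expressed more in female liver are shown because neighbours with similar sequences differed in level among the same livers. Each run is the 120 bases before the RefSeq start on GRCm38.p6, read in the direction of the gene. The windows are chr5:145469724-145469843 (- strand) for Cyp3a16, chr5:145720137-145720256 (- strand) for Cyp3a41a, chr5:145805875-145805994 (- strand) for Cyp3a44, chr19:39886770-39886889 (- strand) for Cyp2c69, chr19:39812815-39812934 (- strand) for Cyp2c40, chr7:26173289-26173408 (+ strand) for Cyp2b9 and chr7:26061375-26061494 (+ strand) for Cyp2b13. Capitals mark CAAAGTCCA, an element of the kind bound by the hepatocyte nuclear receptor HNF4α.
Cyp3a16: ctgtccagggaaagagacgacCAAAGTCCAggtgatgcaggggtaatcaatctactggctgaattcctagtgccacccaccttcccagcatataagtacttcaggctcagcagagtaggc
Cyp3a41a: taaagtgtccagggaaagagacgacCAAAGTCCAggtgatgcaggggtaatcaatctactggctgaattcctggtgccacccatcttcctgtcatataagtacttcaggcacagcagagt
Cyp3a44: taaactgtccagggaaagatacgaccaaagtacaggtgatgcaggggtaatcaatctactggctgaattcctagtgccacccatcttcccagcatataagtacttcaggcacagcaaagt
Cyp2c69: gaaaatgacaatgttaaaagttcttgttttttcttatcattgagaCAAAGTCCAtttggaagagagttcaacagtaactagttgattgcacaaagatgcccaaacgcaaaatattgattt
Cyp2c40: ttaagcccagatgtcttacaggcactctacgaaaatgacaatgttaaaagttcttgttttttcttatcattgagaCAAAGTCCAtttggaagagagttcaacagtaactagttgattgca
Cyp2b9: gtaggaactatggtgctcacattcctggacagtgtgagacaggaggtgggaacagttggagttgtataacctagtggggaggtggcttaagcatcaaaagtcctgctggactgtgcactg
Cyp2b13: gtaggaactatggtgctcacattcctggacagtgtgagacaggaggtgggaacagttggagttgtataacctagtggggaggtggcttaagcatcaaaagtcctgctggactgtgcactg
Cyp3a41a and Cyp3a44 were 94.4% identical over the aligned 250 bases before their starts, Cyp3a16 and Cyp3a44 92.9%, and Cyp2b9 and Cyp2b13 99.2%. For Cyp2c69 and Cyp2c40, 217 of 280 aligned columns were identical (77.5%), with the unpaired ends counted as differences. Their starts were placed differently relative to the sequence they share, with the element at -75 in Cyp2c69 and -45 in Cyp2c40. The beginning of the printed Cyp2c69 window is the same run of letters as the end of the printed Cyp2c40 window. At the place of the element, Cyp3a44 carried the substitution C7A relative to Cyp3a41a, counted from 1 at the first letter of the element. CAAAGTCCA on either strand was found in the 250 bases before the start of 8 of the 55 member genes with a RefSeq promoter, namely Cyp2c40, Cyp2c67, Cyp2c68, Cyp2c69, Cyp2c70, Cyp3a11, Cyp3a16 and Cyp3a41a. It occurred in 0.384% of all 32851 promoters of that length. TTCNNNGAA, the letters of STAT5 sites, was found in 3 of the 55 (Cyp2j11, Cyp4b1 and Cyp4f13) and in 7.02% of all promoters. GCGTG, the core of Ah receptor sites, was found in 10 of the 55, Cyp1a1 and Cyp2b10 among them, and in 28.2% of all promoters. A match is a description of letters, and binding was not measured.

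Ccne1 itself checked the labels. It was at 2.82, 2.05 and 2.53 CPM in TA livers and 298, 210.1 and 353 CPM in CCNE-TA livers, at 2.58, 2.02 and 1.57 against 897, 772 and 485 CPM in kidney and at 3.72, 6.02 and 1.04 against 125, 65.7 and 75.2 CPM in lung, with no overlap in any tissue. Library totals, rounded to 6 digits, were 26214900 to 61954500 counts in liver, 20352800 to 43202100 counts in kidney and 41597600 to 155324000 counts in lung. P450 genes took 2.11% to 3.10% of all counts in liver, 0.335% to 0.772% in kidney and 0.318% to 0.816% in lung. Beside the genotype, 5 of 5 bile duct markers rose in liver, with a summed level of 46.4 to 50.3 CPM in TA and 229 to 335 CPM in CCNE-TA. In the same livers 5 of 5 endothelial markers fell, from 78.1 to 103 to 31.2 to 34.3 CPM. Of 8 hepatocyte markers 1 rose, and their sums overlapped, at 110090.0 to 139218 CPM in TA and 100865 to 186595 CPM in CCNE-TA. TA liver libraries 1 and 2 also held exocrine pancreas transcripts, summing to 155 and 39.7 CPM, against 0.939 to 1.39 CPM in the other livers. The part of these markers in the P450 results was not tested. In whole tissue, fewer cells of a type and less RNA per cell cannot be told apart.

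Control tissues differed widely in their P450 genes, and liver held the highest level of most. Among TA libraries, and per transcript length (RPKM, reads scaled to library size and to transcript length in kilobases), the highest mean was in liver for 49 genes, in kidney for 12 and in lung for 9. In one edgeR fit of all 18 libraries, 60 of 71 genes differed between TA liver and TA kidney (62.2% of all genes tested). Of the 71, 47 were higher in liver (28.6% of all genes) and 13 higher in kidney (33.6%). Between TA liver and TA lung 64 of 71 differed (68.5% of all genes), 54 higher in liver (32.6%) and 10 higher in lung (35.8%). Between TA kidney and TA lung 45 differed (57.3%), 21 higher in kidney (27.6%) and 24 higher in lung (29.6%). These contrasts share their TA libraries. Of the 71 genes 14 reached 0.5 CPM in 1 tissue only (8 in liver, 5 in kidney and 1 in lung), so that their entry alone favours a tissue difference, and the counts are descriptions. TA livers were 1 female and 2 male, whereas TA kidneys and lungs were 2 female and 1 male, so sex moves with these contrasts in part.

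**Figure D1:**
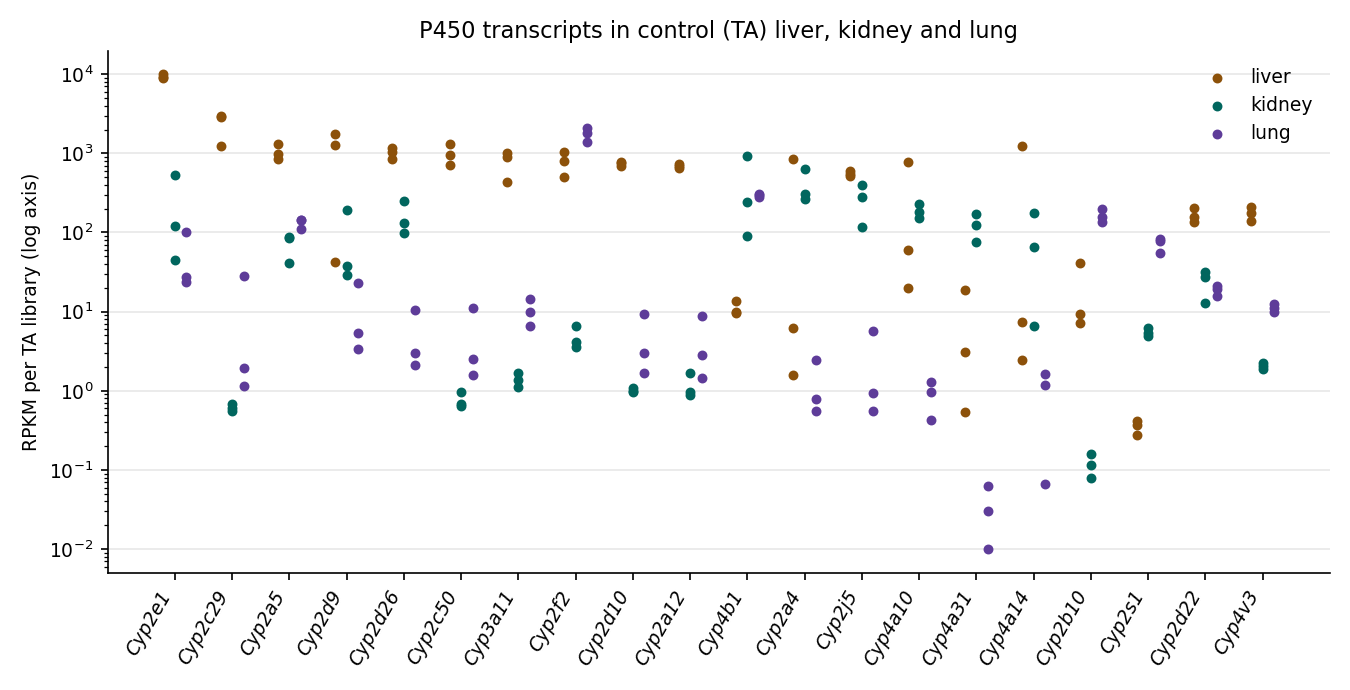
RPKM (log axis) of the P450 genes that ranked among the 10 highest in TA liver, kidney or lung, 1 point per TA library; values under 0.01 are drawn at 0.01. Cyp2e1 and Cyp2c29 were highest in liver, Cyp2f2 in lung, and Cyp4a14, Cyp4a10 and Cyp2d9 spread over more than 10-fold among the TA livers.

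In TA liver Cyp2e1, which oxidizes ethanol and acetaminophen, stood first at 9221, 9917 and 9058 RPKM, 35.9% of the summed P450 RPKM. Its level in TA kidney was 45.5, 120.5 and 529 RPKM and in TA lung 23.8, 27.4 and 102 RPKM. Every liver library was above every kidney and lung library (log2 difference liver minus kidney 5.34 ± 0.98 (SE), edgeR adjusted p = 0.000186). Cyp2c29, of the arachidonic acid epoxygenase subfamily CYP2C, followed in liver at 1246, 2952 and 2893 RPKM. Cyp1a2, an enzyme of arylamine and caffeine oxidation, had 444, 918 and 631 RPKM in liver and at most 7.61 RPKM in any TA kidney or lung library.

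Lung had a short list of its own. Cyp2f2, which activates naphthalene in club cells, made up 66.9% of the summed P450 RPKM of TA lung, at 1821, 2075 and 1403 RPKM. It was lower in liver, at 504, 1039 and 799.5 RPKM (log2 difference liver minus lung -1.18 ± 0.43 (SE), edgeR adjusted p = 0.0227), and lower still in kidney, at 4.08, 3.54 and 6.66 RPKM. Cyp4b1, an enzyme of fatty acids and plant toxins, had 311, 279 and 299 RPKM in lung and 89.1, 242 and 919 RPKM in kidney, where the libraries spread about 10-fold, and 9.66, 13.5 and 9.79 RPKM in liver. Cyp4b1 did not differ between lung and kidney beyond that spread (edgeR adjusted p = 0.569). Cyp2b10, a CAR target in liver, had 156, 137 and 199 RPKM in lung against 41.5, 9.45 and 7.26 RPKM in liver. Cyp2s1, an epithelial P450, was at 77.2, 83.6 and 55.2 RPKM in lung, 4.93, 6.28 and 5.37 RPKM in kidney and 0.275, 0.417 and 0.369 RPKM in liver, with no overlap between tissues.

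By mean RPKM, kidney was led by Cyp4b1, the steroid hydroxylase Cyp2a4 and the epoxygenase Cyp2j5, in that order. Cyp2a4 had 310.4, 264 and 628 RPKM and Cyp2j5 118, 279 and 395 RPKM. By the values above, Cyp4b1 was below both of them in the female TA libraries and above them only in the male one. Cyp2j11, of the subfamily of Cyp2j5, had 28.1, 69.5 and 59.4 RPKM in kidney and at most 0.0292 RPKM in any TA liver or lung library. Cyp4a31, of the fatty acid hydroxylase subfamily CYP4A, had 124, 171 and 75.1 RPKM in kidney and 19.0, 3.09 and 0.543 RPKM in liver. Cyp1b1, which hydroxylates estradiol, was at 5.63, 7.74 and 4.39 RPKM in kidney, above lung at 2.28, 2.17 and 2.25 RPKM and liver at 0.443, 0.504 and 0.370 RPKM. Each of these 3 genes was higher in kidney than in liver, and for Cyp1b1 the edgeR adjusted p was 4.78e-08.

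In liver, CCNE-TA changed 11 of the 62 P450 genes tested, 6 rising and 5 falling. That is 17.7% of the P450 genes, beside 28.5% of all genes tested (13.7% higher and 14.8% lower). The CPM of the genotypes did not overlap for 21 of the 62 genes, beside 47.9% of all genes. The median log2 fold change (CCNE-TA minus TA) was 0.18 over the P450 genes and 0.02 over all genes. By subfamily, 3 of 9 CYP2D genes rose and 2 fell, 1 of 6 tested CYP4F genes rose and 1 fell, and 1 of 4 CYP2A and 1 of 3 tested CYP2J genes rose. Cyp2u1 and Cyp4b1, each the 1 tested gene of its subfamily, fell. None of 13 CYP2C, 7 CYP3A or 6 CYP4A genes passed the threshold of an edgeR adjusted p of 0.05, with 0, 1 and 1 at an unadjusted p under 0.05 and 0, 1 and 1 called by DESeq2. DESeq2 called 17 genes in all, the 11 among them (32.3% of all genes). The count fell to 3 without CCNE-TA library 1, to 3 without TA library 2 and to 4 without TA library 3. Shares of all genes were not taken for these fits, so a fall particular to P450 genes cannot be told from a general one. With Xist as a covariate 12 were called (20.3% of all genes) but only 4 of the 11 were among them (Cyp2d12, Cyp2d37-ps, Cyp2j9 and Cyp4f16). In the fit of all 18 libraries 11 were called with 5 of the 11 among them, and its share of all genes for liver was not taken. With upper-quartile scaling 12 were called, 8 higher and 4 lower (28.8% of all genes).

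**Figure D2:**
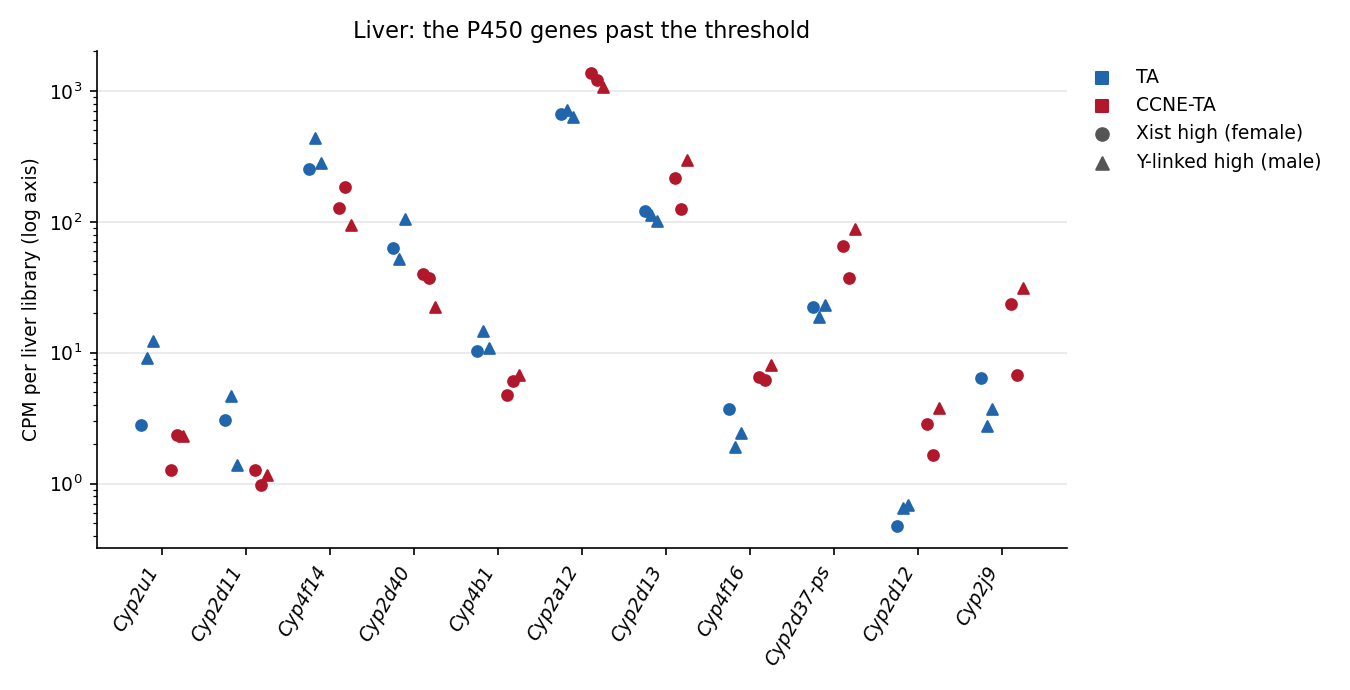
CPM per liver library (log axis) of the 11 P450 genes past the threshold in liver, ordered by log2 fold change; blue, TA; red, CCNE-TA; circles, female libraries; triangles, male libraries. Cyp2u1, Cyp2d11, Cyp4f14, Cyp2d40 and Cyp4b1 were lower in CCNE-TA, and Cyp2a12, Cyp2d13, Cyp4f16, Cyp2d37-ps, Cyp2d12 and Cyp2j9 were higher.

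The rising genes with the smallest p were members of CYP2D, a subfamily of drug and steroid oxidases. Cyp2d12 (chromosome 15, 82555072 to 82560403, plus strand) had 0.478, 0.648 and 0.682 CPM in the TA libraries and 2.87, 1.64 and 3.77 CPM in the CCNE-TA libraries, with every CCNE-TA library above every TA library (log2 fold change 2.2 ± 0.43 (SE), edgeR adjusted p = 0.00989). Its control level in liver was low, and in kidney it was at 71.6, 72.7 and 80.0 CPM in TA. Kap, an abundant kidney transcript, was at 13.8, 0 and 0 CPM in the TA livers and 22.8, 13.1 and 25.6 CPM in the CCNE-TA livers. Cyp2j11, at 64.2, 157 and 135 CPM in TA kidney, reached at most 0.0920 CPM in any liver. The part of kidney transcripts in the liver level of Cyp2d12 was not tested. Cyp2d37-ps, a transcribed pseudogene (chromosome 15, 82688750 to 82693148, minus strand), had 22.5, 18.6 and 23.2 CPM in the TA libraries and 65.6, 37.4 and 88.5 CPM in the CCNE-TA libraries, again without overlap (log2 fold change 1.58 ± 0.30 (SE), edgeR adjusted p = 0.00947). These were the only genes of the 11 that passed in all 6 fits that left out 1 liver library. Cyp2d13 had 121, 112 and 102 CPM in the TA libraries and 214, 126 and 298 CPM in the CCNE-TA libraries and was just past the threshold (log2 fold change 0.93 ± 0.30 (SE), edgeR adjusted p = 0.04997). It lost its call in 5 of the 6 such fits, all but the fit without CCNE-TA library 2.

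Other genes rose outside CYP2D. Cyp2j9, of the arachidonic acid oxidizing subfamily CYP2J, had 6.38, 2.76 and 3.72 CPM in the TA libraries and 23.4, 6.80 and 31.5 CPM in the CCNE-TA libraries (log2 fold change 2.25 ± 0.57 (SE), edgeR adjusted p = 0.0271). The second CCNE-TA library lay only just above the highest TA library, and in kidney the gene was at 23.8, 16.3 and 33.2 CPM in TA. Cyp4f16, of the fatty acid hydroxylase subfamily CYP4F, had 3.71, 1.92 and 2.45 CPM in the TA libraries and 6.47, 6.21 and 8.13 CPM in the CCNE-TA libraries (log2 fold change 1.36 ± 0.31 (SE), edgeR adjusted p = 0.0157). Of its 50-base stretches 26.5% occur in another gene, mostly Cyp4f37, so its share of reads is uncertain. Cyp2a12, a steroid hydroxylase and one of the more abundant liver members, had 667, 711 and 634 CPM in the TA libraries and 1361, 1215 and 1065 CPM in the CCNE-TA libraries (log2 fold change 0.86 ± 0.23 (SE), edgeR adjusted p = 0.0281). Cyp2a12 shared 27.5% of such stretches with Cyp2a22, which had 23.4, 1.84 and 2.10 CPM in the TA libraries and 98.0, 101 and 24.4 CPM in the CCNE-TA libraries (log2 fold change 3.02 ± 1.30 (SE), edgeR adjusted p = 0.146). Cyp2j9 lost its call in 4 of the 6 leave-one-out fits, Cyp4f16 in 2 and Cyp2a12 in 4.

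With Xist as a covariate, in a liver set not balanced over sex, all 5 falling genes were past the threshold no longer. Their edgeR adjusted p was then 0.0543 for Cyp4b1, 0.0613 for Cyp4f14, 0.119 for Cyp2u1, 0.0587 for Cyp2d40 and 0.0945 for Cyp2d11, and the log2 fold change of Cyp2u1 was -1.13 in place of -2.03. Among these genes, Cyp4f14, which inactivates leukotriene B4, had 255, 434 and 282 CPM in the TA libraries and 127, 185 and 94.7 CPM in the CCNE-TA libraries (log2 fold change -1.26 ± 0.32 (SE), edgeR adjusted p = 0.0221). Its genotypes did not overlap, and the call was lost in 3 of 6 leave-one-out fits. Cyp4b1 had 10.4, 14.7 and 10.8 CPM in the TA libraries and 4.77, 6.10 and 6.72 CPM in the CCNE-TA libraries (log2 fold change -1.03 ± 0.24 (SE), edgeR adjusted p = 0.0173). The level was low in every liver, and the call was lost in 2 of 6 such fits. Cyp2u1, a long-chain fatty acid hydroxylase, had 2.82, 9.13 and 12.3 CPM in the TA libraries and 1.27, 2.34 and 2.30 CPM in the CCNE-TA libraries (log2 fold change -2.03 ± 0.53 (SE), edgeR adjusted p = 0.0244). The lowest TA library was the female one, and the call was lost in 4 of 6 fits. Cyp2d40 had 63.4, 52.2 and 105 CPM in the TA libraries and 39.9, 37.1 and 22.4 CPM in the CCNE-TA libraries (log2 fold change -1.15 ± 0.31 (SE), edgeR adjusted p = 0.029) and lost its call in 3. Cyp2d11 had 3.09, 4.67 and 1.39 CPM in the TA libraries and 1.27, 0.985 and 1.17 CPM in the CCNE-TA libraries (log2 fold change -1.42 ± 0.46 (SE), edgeR adjusted p = 0.0484) and lost it in 5, and 37.2% of its 50-base stretches are shared, mostly with Cyp2d10.

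**Figure D3:**
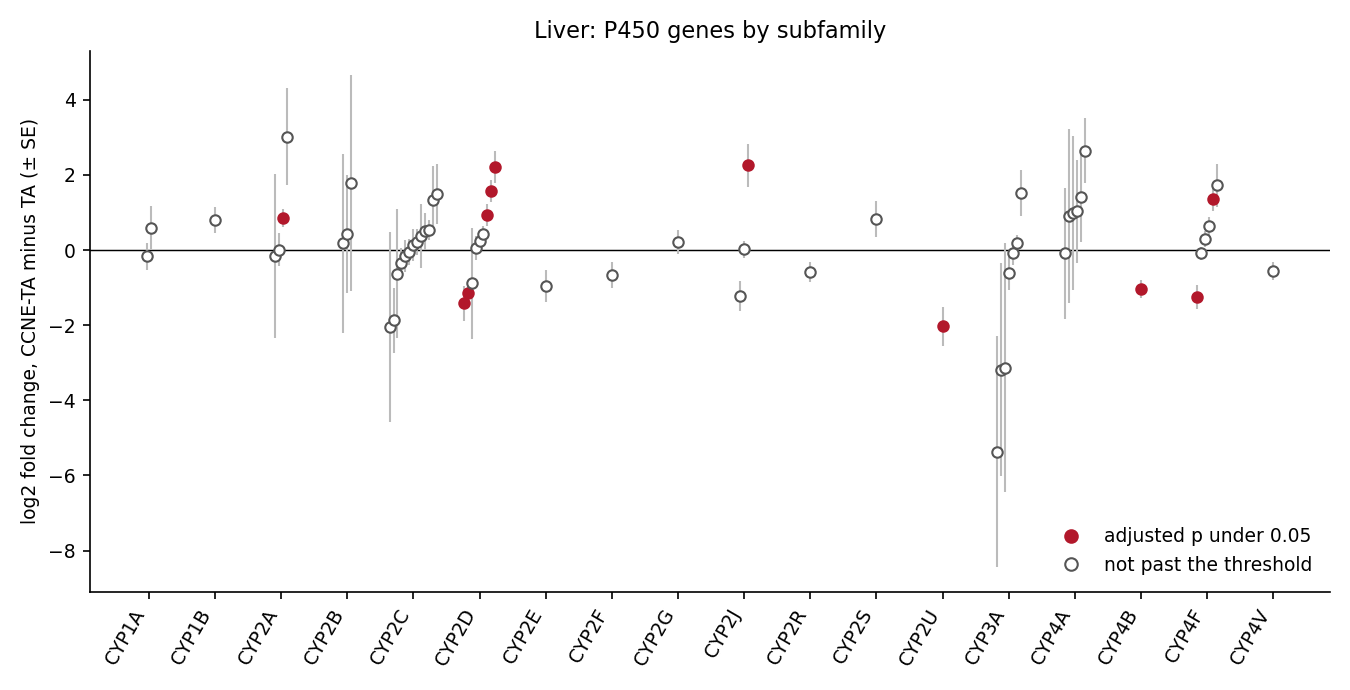
Log2 fold change in liver (CCNE-TA minus TA, ± SE) of each tested P450 gene by subfamily; filled points passed an edgeR adjusted p of 0.05 and open points did not. The CYP2D and CYP4F subfamilies held called genes in both directions, and the widest errors were in CYP2B, CYP2C, CYP3A and CYP4A.

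Several abundant liver members did not pass the threshold and are given by their values. Cyp2e1 had 9600.1, 10445 and 9707 CPM in the TA libraries and 4848, 7959.6 and 2405 CPM in the CCNE-TA libraries, with all CCNE-TA libraries below all TA libraries (log2 fold change -0.97 ± 0.42 (SE), edgeR adjusted p = 0.116). Cyp2j5 had 693, 801 and 760.3 CPM in the TA libraries and 346, 477 and 142 CPM in the CCNE-TA libraries, also without overlap (log2 fold change -1.22 ± 0.40 (SE), edgeR adjusted p = 0.0514). DESeq2 called both lower. Cyp2c29 had 1261, 3024 and 3016 CPM in the TA libraries and 754, 1162 and 79.1 CPM in the CCNE-TA libraries, with the lowest value in the male CCNE-TA library (log2 fold change -1.87 ± 0.87 (SE), edgeR adjusted p = 0.147). Cyp3a11, the main PXR-inducible member, had 1192, 581 and 1401 CPM in the TA libraries and 3139.7, 5096 and 864 CPM in the CCNE-TA libraries (log2 fold change 1.52 ± 0.61 (SE), edgeR adjusted p = 0.0942). The female CCNE-TA libraries were high and the male one lay within the TA range. Cyp1a2 had 489, 1023 and 716 CPM in the TA libraries and 627, 896 and 461 CPM in the CCNE-TA libraries, with the groups overlapping (log2 fold change -0.17 ± 0.35 (SE), edgeR adjusted p = 0.746). Cyp2a5, which oxidizes coumarin and nicotine, had 962, 1128 and 1546 CPM in the TA libraries and 532, 1181 and 1934 CPM in the CCNE-TA libraries (log2 fold change 0.00 ± 0.44 (SE), edgeR adjusted p = 0.996).

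Summed per subfamily, which does not depend on the split of counted reads among its members, the liver totals were described without a test. CYP2E was at 9917 ± 460.1 CPM (SD, n = 3) in TA and 5071 ± 2784 CPM in CCNE-TA. CYP2J, of which Cyp2j5 made up 86.8% to 90.3% in the TA libraries and 75.9%, 81.9% and 52.8% in the CCNE-TA libraries, was at 848 ± 77.9 CPM (SD, n = 3) in TA and 436 ± 157 CPM in CCNE-TA, and its libraries did not overlap. CYP2C was at 6321 ± 1089.6 CPM (SD, n = 3) in TA and 4727 ± 1748 CPM in CCNE-TA, with overlap. CYP2D, whose members moved in both directions, was at 3186 ± 823 CPM (SD, n = 3) in TA and 3150.0 ± 470.1 CPM in CCNE-TA. CYP3A was at 2061 ± 794 CPM (SD, n = 3) in TA and 3748 ± 2172 CPM in CCNE-TA and CYP4A at 1333 ± 1210.4 CPM (SD, n = 3) in TA and 2339 ± 439 CPM in CCNE-TA, each with overlapping libraries. CYP4F libraries did not overlap, at 464 to 692 CPM in TA and 356 to 419 CPM in CCNE-TA. Leaving out the TMM factors added 0.05 to 0.15 to the log2 differences of the 19 subfamily totals in liver.

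Lists of P450 genes by known regulator were read beside the 28.5% of all genes called in liver, and with so few genes each a count is a description. None of 3 Ah receptor targets passed in edgeR (median log2 fold change 0.60, beside 0.02 over all genes), none of 8 CAR and PXR targets (median 0.46) and none of 6 PPARα targets (median 1.01). Of 8 genes expressed around the central vein none passed (median -0.03), and none of 11 tested female-biased genes (median -0.16). At an unadjusted p under 0.05 these lists held 1, 1, 1, 2 and 0 genes, and DESeq2 called 0, 1, 1, 2 and 0. Of 14 tested genes of arachidonic and fatty acid oxidation Cyp2j9 and Cyp4f16 rose and Cyp4f14 fell, and of 4 male-biased genes Cyp2u1 fell.

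The sex-biased genes had the widest spread in liver, and the genotypes differed in sex. In the TA livers Cyp3a41a, a female-expressed CYP3A gene, had 459.8 CPM in the female library and 0.0540 and 0 CPM in the male libraries. In CCNE-TA it had 40.9 and 10.8 CPM in the female libraries and 0.767 CPM in the male library. Cyp3a16 had 114 CPM in the TA female library and 1.37 and 1.15 CPM in the CCNE-TA female libraries. Cyp3a44 had 265 CPM against 19.1 and 9.31 CPM in the same libraries. All 3 genes were thus lower in both CCNE-TA females than in the TA female.

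**Figure D4:**
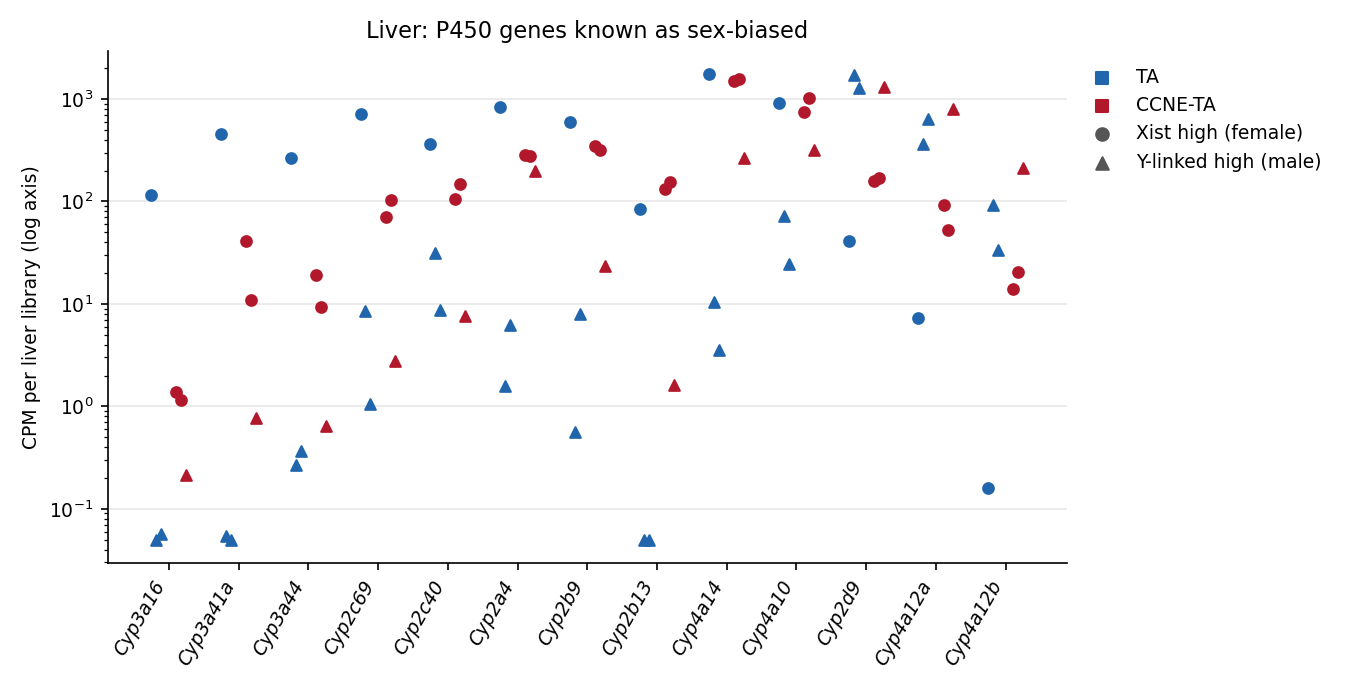
CPM per liver library (log axis) of P450 genes known to differ by sex, with Cyp4a10 beside its neighbour Cyp4a14; blue, TA; red, CCNE-TA; circles, female; triangles, male; values under 0.05 are drawn at 0.05. Cyp3a16, Cyp3a41a, Cyp3a44, Cyp2c69 and Cyp2c40 were lower in the CCNE-TA females than in the TA female, whereas Cyp2b13 was higher in them.

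Genotype effects within each sex came from 1 edgeR fit of the 4 groups of sex and genotype, added after the sexes were seen. The female effect sets 2 CCNE-TA libraries against 1 TA library, and the male effect 1 against 2, with the spread pooled over the groups. Among female livers 7 of 62 P450 genes passed, beside 3.24% of all genes, and 0 of them were among the 11. Cyp3a16 fell (log2 fold change -6.50, adjusted p = 0.0054) and Cyp3a44 fell (-4.22, adjusted p = 0.0132), whereas Cyp3a41a was at -4.15 (adjusted p = 0.0675). The male-biased steroid hydroxylase Cyp2d9 rose among females, from 41.2 to 159 and 168 CPM (log2 fold change 1.99, adjusted p = 0.0369). Cyp4a12a, a hydroxylase of arachidonic acid, rose from 7.21 to 91.8 and 52.4 CPM (3.32, adjusted p = 0.0384). Cyp4a12b, Cyp2a22 and Cyp2c55 also rose. In the female TA library, the only one of its kind, pancreas transcripts were present as given above.

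Female-biased genes did not move as one. Cyp2b13 and Cyp2b9, whose printed promoters are identical, were not lost in the CCNE-TA females. They were at 134 and 156 CPM against 84.9 CPM in the TA female, and at 351 and 314 against 602 CPM, respectively. Neither passed among females. Cyp2c69 was at 69.8 and 104 CPM against 719 CPM, with a female log2 fold change of -3.05 (adjusted p = 0.197). With Xist as a covariate instead, 12 P450 genes passed (20.3% of all genes), and Cyp2c69, Cyp2c40, Cyp3a16 and Cyp3a44 were the 4 that fell.

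Among male livers 22 of 62 P450 genes passed, 13 rising and 9 falling, beside 26% of all genes, and 8 of the 22 were among the 11. All of these rest on the single male CCNE-TA library. Cyp2c29 fell from 3024 and 3016 to 79.1 CPM (log2 fold change -5.25, adjusted p = 0.00516). Cyp2e1 fell from 10445 and 9707 to 2405 CPM (-2.07, adjusted p = 0.0175), and Cyp2j5 and Cyp2f2 also fell. Of 11 tested female-biased genes 3 rose among males (Cyp2a4, Cyp2b13 and Cyp4a14) and 0 fell, with 8 not passing. Cyp2a4 rose from 1.57 and 6.28 to 200.3 CPM (5.67, adjusted p = 0.0132). Cyp4a14, a PPARα-responsive fatty acid hydroxylase, rose from 10.5 and 3.55 to 265 CPM (5.24, adjusted p = 0.0103). Cyp2b13, with no count in the male TA libraries, had 1.63 CPM. Cyp2d9, by contrast, was at 1312 CPM against 1726 and 1268 CPM. The difference between the female and the male effect, tested as an interaction, passed for 0 of 62 genes in edgeR (0% of all genes). By unadjusted p 21 of the 62 were under 0.05, the smallest adjusted p was 0.11, and DESeq2 called 18 (2.19% of all genes).

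Genes that serve the P450 system were read in the same liver fit, in which 28.5% of all genes were called. Of 4 tested redox partners 1 fell, Cyb5b (log2 fold change -1.14, edgeR adjusted p = 0.0205). Cyb5a, the other cytochrome b5 gene of the list, was not among those tested. The reductase Por had 1074, 708 and 612 CPM in the TA libraries and 334, 586 and 496 CPM in the CCNE-TA libraries (log2 fold change -0.76 ± 0.32 (SE), edgeR adjusted p = 0.102). Of 12 heme genes, Ppox (1.05) and Blvrb (0.78) rose, and Cpox (-1.22) and Fech (-1.11), the last enzyme of heme synthesis, fell. Of 16 tested receptors and factors that control P450 genes 1 rose and 6 fell, beside 13.7% and 14.8% of all genes. The riser was Nr0b2 (1.13), a repressor of nuclear receptors. The 6 were Onecut1 (-3.15), Ppara (-1.41), Rxra (-1.35), the glucocorticoid receptor Nr3c1 (-1.19), Hnf4a (-0.87) and Arnt (-0.72), the partner of the Ah receptor. CAR (Nr1i3) was at 0.68 (adjusted p = 0.196) and PXR (Nr1i2) at 0.45 (adjusted p = 0.128). Among non-P450 targets, 1 of 3 Ah receptor targets rose (Nqo1, 1.30) and 1 fell (Ugt1a6a, -2.97), and 1 of 9 PPARα targets fell (Cpt1a, -1.02). Of 7 P450 genes of other families, Cyp8b1 of bile acid synthesis (-2.18) and Cyp51 of sterol synthesis (-1.22) fell.

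In kidney, 0 of the 53 P450 genes tested passed in edgeR (0.0131% of all genes), and 0 passed in DESeq2 (0.136% of all genes). By unadjusted p 1 gene was under 0.05, Cyp4a12b, with 3.95, 4.63 and 21.5 CPM in the TA libraries and 41.3, 22.8 and 24.4 CPM in the CCNE-TA libraries. Genotypes did not overlap for 2 of 53 genes, beside 5.73% of all genes. Log2 fold changes ran from -1.01 to 1.56, with a median of -0.01. Library 3 of each genotype, the male one, stood out more than the genotypes did. Cyp2j13, an epoxygenase known as male-specific in mouse kidney, had 0.266, 0.651 and 156 CPM in the TA libraries and 1.60, 1.85 and 117 CPM in the CCNE-TA libraries. Cyp4b1 had 201, 539 and 2065 CPM in the TA libraries and 103, 448 and 1182 CPM in the CCNE-TA libraries, and Cyp2e1 99.2, 260.1 and 1151 CPM in the TA libraries and 108, 246 and 849.9 CPM in the CCNE-TA libraries. The male libraries were highest in both genotypes for these 3 genes and for Cyp4a12a and Cyp2d9, with 1 male library per genotype. Cyp4a14 was lowest in them, at 194, 513 and 19.8 CPM in the TA libraries and 158, 642 and 61.3 CPM in the CCNE-TA libraries. Within the same-numbered pairs, the kidney sums of CYP2A were 745, 743 and 1507 CPM in TA against 620.5, 426 and 1100.1 CPM in CCNE-TA, and those of CYP4B 201, 539 and 2072 against 104, 448 and 1185 CPM, lower in CCNE-TA in 3 of 3 pairs. The CYP1A, CYP2F and CYP2J sums were also lower in CCNE-TA in 3 of 3 pairs, and the CYP2D sums were higher. No other subfamily was lower or higher in all 3 pairs. Summed proximal tubule markers were also lower in each pair, at 41423, 34784 and 75364 CPM in TA against 17568, 23192 and 40051 CPM in CCNE-TA, and their part in these sums was not tested. With the replicate number as a block 0 kidney P450 genes passed.

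In lung, 0 of the 57 P450 genes tested passed in edgeR (0.00594% of all genes), and 25 had an unadjusted p under 0.05. The share of all lung genes at that unadjusted p was not taken, so the 25 are a description. The CPM of the genotypes did not overlap for 28 genes, beside 7.9% of all genes, and 27 of these were lower in CCNE-TA. DESeq2 called 17 genes (1.04% of all genes) and the fit of all 18 libraries 11 (0.548% of all genes), each of them lower and the 11 all among the 17. These are liver-expressed genes such as Cyp1a2, Cyp2a12, Cyp2c54, Cyp2c70, Cyp2d10, Cyp2d26, Cyp3a11 and Cyp3a25. Cyp2d26 had 5.22, 7.44 and 26.2 CPM in the TA libraries and 2.72, 1.39 and 0.473 CPM in the CCNE-TA libraries, and Cyp3a11 had 22.3, 34.2 and 49.4 CPM in the TA libraries and 8.26, 3.66 and 1.62 CPM in the CCNE-TA libraries. All 8 hepatocyte markers were detected in every lung library, with sums of 435, 661 and 2274 CPM in TA and 283, 117 and 35.7 CPM in CCNE-TA. Cyp2d26 and Cyp3a11 had the same order of libraries as these sums. Cyp2e1, also among the 17, did not among the CCNE-TA libraries, at 30.6, 33.6 and 31.8 CPM. The part of the hepatocyte markers in these values was not tested. Without TA library 3, the highest in hepatocyte markers, the edgeR log2 fold change of Cyp2d26 was -2.06 and that of Cyp3a11 was -2.66, against -3.07 and -2.96 with it.

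**Figure D5:**
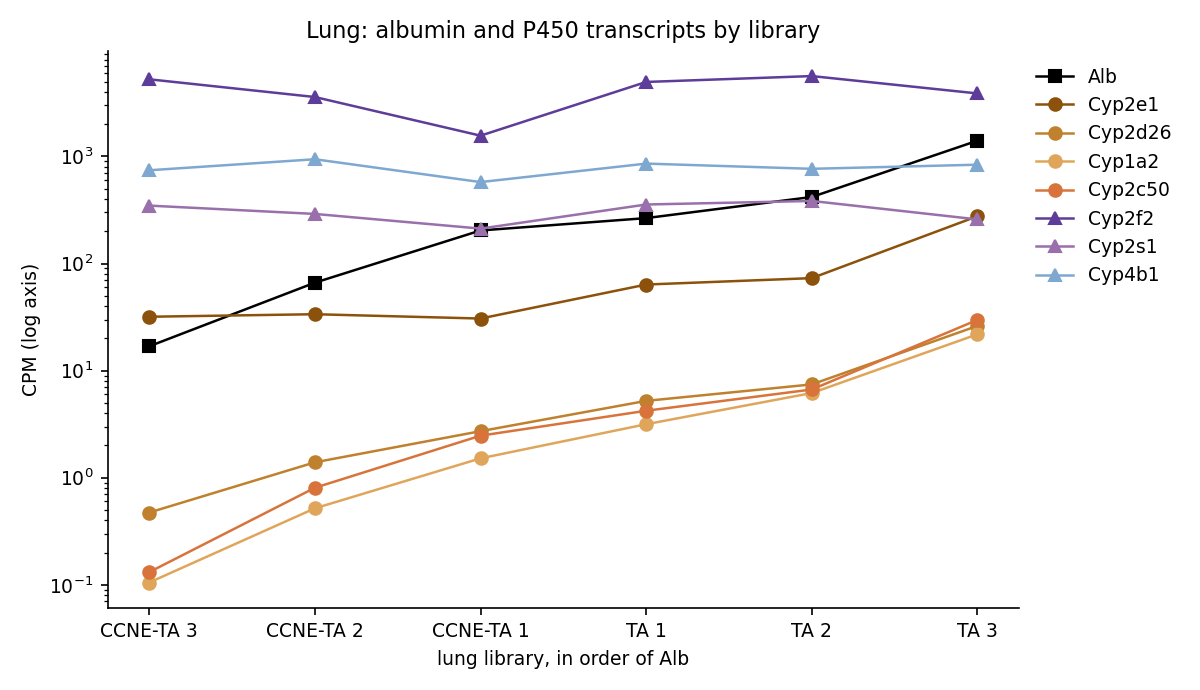
CPM (log axis) of albumin (Alb, a hepatocyte transcript) and of P450 genes in the 6 lung libraries, ordered by Alb; lines join the values of a gene. Cyp2d26, Cyp1a2 and Cyp2c50 had the same order of libraries as Alb, whereas Cyp2f2, Cyp2s1 and Cyp4b1 did not follow that order. Cyp2e1 followed it among the TA libraries, but not among the CCNE-TA libraries.

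Cyp2f2, Cyp4b1, Cyp2b10, Cyp2a5 and Cyp2s1, the highest P450 genes of TA lung by mean RPKM, were called by neither edgeR nor DESeq2. Cyp2e1, next at 51.1 RPKM, was among the 17 that DESeq2 called lower. Cyp2f2 had 4955, 5624 and 3872 CPM in the TA libraries and 1562, 3585 and 5247 CPM in the CCNE-TA libraries, with overlap (log2 fold change -0.48 ± 0.43 (SE), edgeR adjusted p = 1). Cyp2a5 had 426, 427 and 329.6 CPM in the TA libraries and 58.5, 172 and 576 CPM in the CCNE-TA libraries. CCNE-TA library 1 was lowest for both, and it was also lowest in summed club cell markers, at 27654 CPM against 52319 CPM or more in the other lungs. Cyp4b1 had 857, 766 and 837 CPM in the TA libraries and 576, 941 and 742 CPM in the CCNE-TA libraries, Cyp2b10 435, 380.0 and 564 CPM in the TA libraries and 313, 552 and 435 CPM in the CCNE-TA libraries and Cyp2s1 356, 384 and 258 CPM in the TA libraries and 212, 290.4 and 347 CPM in the CCNE-TA libraries, and none of them separated the genotypes. Cyp1a1, the classical Ah receptor target, had 11.5, 7.90 and 22.9 CPM in the TA libraries and 21.4, 59.8 and 31.2 CPM in the CCNE-TA libraries, with the groups overlapping (log2 fold change 1.41 ± 0.52 (SE), edgeR adjusted p = 1).

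Whether the genotype effect differed between tissues was tested as an interaction over all 71 genes. Between liver and lung 17 genes differed (12.7% of all genes), each with a higher effect in liver (6.23%). A higher effect in liver includes a lower level in the CCNE-TA lungs, as for Cyp1a2 (log2 fold change -0.17 in liver and -3.84 in lung). For Cyp2j9 the values were 2.25 and -0.07. The count was 9 without CCNE-TA library 1 and 8 without TA library 3 of liver, and 8 without CCNE-TA library 2 and 10 without TA library 2 of lung. For interaction fits with a library left out, here and below, shares of all genes were not taken. Without TA library 3 of lung, the highest in hepatocyte markers, 13 were called, 11 of them among the 17. Cyp2d37-ps, Cyp3a11 and Cyp2d13 had the smallest p. The hepatocyte markers of the lung libraries are given above. Between liver and kidney 2 genes differed (9.52% of all genes), Cyp4a32 and Cyp2j9, both with a higher effect in liver (4.78%). Cyp4a32, of the fatty acid hydroxylases, had 21.2, 20.1 and 11.4 CPM in the TA libraries and 60.9, 24.9 and 244 CPM in the CCNE-TA libraries in liver and 1.69, 1.57 and 3.67 CPM in the TA libraries and 1.69, 0.983 and 2.11 CPM in the CCNE-TA libraries in kidney. With the replicate number as a block 1 of the 2 was called (9.21% of all genes). Of liver libraries, 0 were called without CCNE-TA library 3, TA library 2 or TA library 3, 1 without CCNE-TA library 1, 4 without CCNE-TA library 2 and 7 without TA library 1. Of kidney libraries, 0 were called without CCNE-TA library 1, CCNE-TA library 2, TA library 1 or TA library 3. Between kidney and lung 0 of 71 passed in edgeR (0.00583% of all genes), and DESeq2 called 13 (4.36% of genes with an adjusted p). By unadjusted p 23 were under 0.05, with the share of all genes not taken.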

How the data were processed

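Per the labels' protocols, RNA was purified on columns and sequenced from TruSeq v2 libraries, a chemistry that leaves strand unmarked. The values deposited by the authors are raw counts of reads for each gene symbol, not normalized, for 18 libraries. Per the submitters' processing notes, TopHat2 2.0.14, Bowtie2 2.2.6 and featureCounts 1.4.6 of Subread were used with build mm10. The annotation, strand setting and handling of reads with several alignments are not given in the sources used here, so genes that overlap or nearly match others are uncertain.

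Genotypes were compared within a tissue by edgeR 4.0.16 (R 4.3.3; filterByExpr, TMM, robust quasi-likelihood F test). P-values were adjusted by Benjamini-Hochberg over all tested genes, with a threshold of 0.05. Shares of all genes were not taken at an unadjusted p or for fits with a library left out. Counts of P450 genes from these are descriptions. Tested were 62 of the 71 members in liver, 53 in kidney and 57 in lung. Interactions and contrasts of TA tissues came from 1 fit of 18 libraries. The fits were also run on simulated counts, with larger changes than those of the called liver members and with no sex difference. That run cannot show how the fits perform on these livers. CPM is scaled by TMM within a tissue; a count of 3 in a library equals 0.0188 to 0.137 CPM, a floor that covers counting error only. RPKM uses TMM over 18 libraries and the longest GENCODE M21 transcript (98.354% of 24062 symbols had a length, not Cyp2d13). The SE is the fold change over the square root of F. Alternatives were DESeq2 1.42.0, voom of limma 3.58.1, other scalings, filters and fits, Xist as a covariate, length and GC offsets (splines with 4 degrees of freedom), the replicate number as a block and each library left out; the fits by sex were added after the data were seen.

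The genes and lists were chosen with earlier results of these data known. Named are called members, the highest member of each subfamily of 10 CPM or more, a set list of well-known members and up to 4 genes per pathway list; other members, such as Cyp2a22, Cyp2c69 and Cyp3a44, were named after their values were seen. Of replicate numbers, those of kidney paired its samples: deviations of same-numbered libraries correlated at 0.31, 0.49 and 0.34, a pairing seen in the data and not given by the labels. The liver and lung numbers did not.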

Additional observations from a re-analysis of the deposited data

Results flagged for a closer look

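The genotype effect on several P450 genes differed between tissues by the interaction term of edgeR over all 18 libraries, given as the log2 effect in one tissue minus that in the other. Liver exceeded kidney for Cyp4a32 by 3.13 (adjusted p = 0.0372) and for Cyp2j9 by 2.29 (adjusted p = 0.0403).

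Liver exceeded lung for 17 genes, of which the fit of liver alone called only Cyp2d37-ps, Cyp2d13, Cyp2a12 and Cyp2j9. In the fits within a tissue, Cyp1a2 was at -0.17 in liver and -3.84 in lung, Cyp2c50 at -0.06 and -3.56, and Cyp2d26 at 0.06 and -3.07. By contrast, Cyp4a32 was at 2.65 and -0.48 and Cyp2j9 at 2.25 and -0.07. Among CYP2D genes the difference was 4.86 for Cyp2d37-ps, 4.18 for Cyp2d13, 3.67 for Cyp2d10 and 3.10 for Cyp2d26. Among CYP2C genes it was 3.62 for Cyp2c54, 3.47 for Cyp2c50, 3.47 for Cyp2c38, 3.15 for Cyp2c37, 2.80 for Cyp2c70 and 2.77 for Cyp2c44. It was 4.48 for Cyp3a11, 3.50 for Cyp3a25, 4.00 for Cyp2a12, 3.63 for Cyp1a2, 3.07 for Cyp4a32 and 2.28 for Cyp2j9. For Cyp2b19, which had no count in any TA liver, the fitted difference was 8.42 and is no bound. The summed hepatocyte markers were also lower in the CCNE-TA lungs, and their part in these differences was not tested.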

How the results depend on the processing

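The count of P450 genes called in liver was 17 with DESeq2, 7 in the female libraries and 22 in the male libraries, and 3 to 16 when 1 library was left out. Other settings gave 8 (voom) to 12, with 4 of the 11 genes among the 12 under the Xist covariate and 0 among the 7 of the female libraries. In lung 17 were called with DESeq2 and 11 in the fit of all 18 libraries, and 0 in kidney under every alternative run. The counts with 1 library left out, here and below, have no share of all genes beside them. For the liver and kidney interaction DESeq2 gave 5 and the omission of 1 library 0 to 7, for liver and lung the omission gave 8 to 20, for kidney and lung DESeq2 gave 13, and for female and male livers DESeq2 gave 18. With the replicate number as a block the counts were 9 in liver, 0 in kidney and lung, 1 for liver and kidney, 17 for liver and lung, and 59, 64 and 46 for the TA contrasts, and no other call count moved past 1.5 times. In kidney every library correlated best with its own number, as a hint from the data; in liver and lung not. Cyp2d9 in liver, at -0.89 in the fit of all 6 livers, was 1.78 with Xist as a covariate and 1.99 in the female libraries. Cyp4a12a, at -0.09, was 3.05 and 3.32 in the same fits. Cyp2a4, at -0.16, was 5.67 in the male libraries and -0.76 to 6.00 when 1 library was left out, the highest without TA library 1. The causes were not tested. Of the values of single genes under alternatives, 2418 held their side of the threshold, 123 lost a call, 43 gained one, 63 moved and 6 reversed. Among the 2418, a gene called in neither fit could change sign if the shift was within 1 SE. The 63 were such genes with a change of sign and a larger shift. The symbol rule kept 72 genes with TMM scaling and 68 at 1 CPM. Depth limits low genes: in liver Cyp2b19, Cyp2j11 and Cyp2j13 stayed under 1 CPM in every library. With 1 female TA liver and 1 male CCNE-TA liver, effects within a sex assume that the lone library varies like the others.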

Other observations

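The genes here were chosen after their values were seen. Cyp4b1-ps2, a pseudogene of Cyp4b1, had 0.0888, 0.145 and 7.16 CPM in the TA libraries and 0.183, 0.0867 and 2.37 CPM in the CCNE-TA libraries in kidney, high in the male libraries as Cyp4b1 was, and 0.212, 0.133 and 0.0740 CPM in the TA libraries and 0.0940, 0.230 and 3.05 CPM in the CCNE-TA libraries in lung, where CCNE-TA library 3 stood apart. That lung library also held the kidney transcript Kap at 13.7 CPM, against at most 0.0921 CPM in the other lungs. Cyp2r1, which hydroxylates vitamin D, had 9.93, 15.6 and 12.0 CPM in the TA libraries and 7.44, 6.80 and 11 CPM in the CCNE-TA libraries in liver, without a call (log2 fold change -0.57 ± 0.27 (SE), edgeR adjusted p = 0.134).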
